A study of Mus musculus with 2 samples.

Results

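The 10 genes described here are immediate early genes, followed in sorted liver cells of CCl4-treated mice: Fos, Fosb, Fosl2, Jun, Junb, Jund, Egr1, Atf3, Ier2 and Klf6. They were chosen by name, as 10 of the 19073 features measured in both libraries, and all 10 were found. Immediate early genes are transcribed within minutes of a stimulus without new protein synthesis, through kinase cascades that act on SRF with its ETS partners and on CREB. Their products are mostly transcription factors: Fos and Jun family proteins pair to form AP-1, EGR1 is a zinc finger factor, and ATF3 is a stress-induced factor of the ATF/CREB family. In liver they are known from regeneration and injury, and many are also induced when fresh tissue is dissociated with warm enzymes. Here the tissue pieces were fixed in formaldehyde before they were dissociated, so the enzyme and dye steps came after fixation. Perfusion with PBS, excision and chopping of the liver came before it.

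Both libraries came from the livers of male p16-Tom mice, which carry a tamoxifen-dependent Cre expressed from the p16 locus together with a Cre-dependent tdTomato cassette at R26, driven by the CAG promoter. All of the mice received CCl4 for 4 weeks and tamoxifen. Cells with Hoechst and mitochondrial dye signal were sorted by tdTomato fluorescence into a Tom- library (labelled p16low) and a Tom+ library (labelled p16high). tdTomato marks cells that transcribed p16 while tamoxifen was present, and remains after p16 has ceased. Each group was 1 library of an unstated number of animals, and the cells carry no animal label. No test between the libraries was therefore possible, and the intervals below are exact 95% intervals that cover counting error only.

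The study's filters kept 20159 Tom- and 13378 Tom+ cells, with median depths of 26694 and 36075 UMIs, and 372 cell barcodes occurred among the kept cells of both libraries. Of 20 clusters, 9 were taken as hepatocytes, with 10852 Tom- and 10351 Tom+ cells. Alb, the plasma albumin gene, stood between 82989 and 137905 CPM (UMIs of a gene per 1000000 UMIs) in these 9 clusters. Cluster 11, with 137 Tom- and 938 Tom+ cells, is among the 9 although its 10 leading genes include Col1a2, Col4a1, Col4a2, Igfbp7 and Dnase1l3, which stellate or endothelial cells are known to express. Hepatocytes were placed along the lobule, from the portal to the central vein, by a score of 12 zone 3 (pericentral) minus 12 zone 1 (periportal) markers, and cut into 5 equal bins over both libraries. Bin 1, at the periportal end, held 2991 Tom- and 1250 Tom+ cells, and bin 5, at the pericentral end, 1090 and 3150. The score is a range and not a tissue coordinate, and 32.5% of the Tom- and 27.3% of the Tom+ hepatocytes lay near a boundary between bins.

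On mm10, GENCODE places Fos at chromosome 12 from 85473890 to 85477273, Jun at chromosome 4 from 95049034 to 95052222, Klf6 at chromosome 13 from 5861482 to 5870394 and Atf3 at chromosome 1 from 191170296 to 191218039. RefSeq promoter windows (GRCm38.p6, 250 bases before to 50 after a start) were found for 8 of the 10 genes; Egr1 and Ier2 had none in the table used. Shown are the 4 windows with a CRE-type match, the kind of element that CREB and ATF factors bind. Capitals mark, on either strand, a match to TGACNTCA or to the shorter TGACGT (both CRE-type, and able to overlap), to the CCAAT box, or to the TATAAA box.
Fos, plus strand, chr12:85473640-85473939: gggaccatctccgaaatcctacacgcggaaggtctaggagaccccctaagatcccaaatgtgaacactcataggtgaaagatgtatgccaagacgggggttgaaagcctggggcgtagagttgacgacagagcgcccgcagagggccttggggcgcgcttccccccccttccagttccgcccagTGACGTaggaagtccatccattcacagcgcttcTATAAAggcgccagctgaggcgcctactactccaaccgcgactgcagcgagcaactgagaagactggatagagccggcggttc
Jun, minus strand, chr4:95052173-95052472: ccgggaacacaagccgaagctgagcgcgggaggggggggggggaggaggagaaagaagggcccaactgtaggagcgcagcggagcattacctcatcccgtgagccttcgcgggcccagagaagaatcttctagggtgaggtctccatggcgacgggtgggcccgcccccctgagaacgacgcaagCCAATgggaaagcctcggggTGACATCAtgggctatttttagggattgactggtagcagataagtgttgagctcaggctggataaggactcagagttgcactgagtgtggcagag
Klf6, plus strand, chr13:5861239-5861538: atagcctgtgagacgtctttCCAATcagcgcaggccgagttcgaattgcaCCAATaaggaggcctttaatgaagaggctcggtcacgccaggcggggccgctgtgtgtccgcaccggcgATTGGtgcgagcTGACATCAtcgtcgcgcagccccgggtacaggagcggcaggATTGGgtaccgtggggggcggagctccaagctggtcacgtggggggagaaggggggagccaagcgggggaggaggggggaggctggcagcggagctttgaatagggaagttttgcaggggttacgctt
Atf3, minus strand, chr1:191183284-191183583: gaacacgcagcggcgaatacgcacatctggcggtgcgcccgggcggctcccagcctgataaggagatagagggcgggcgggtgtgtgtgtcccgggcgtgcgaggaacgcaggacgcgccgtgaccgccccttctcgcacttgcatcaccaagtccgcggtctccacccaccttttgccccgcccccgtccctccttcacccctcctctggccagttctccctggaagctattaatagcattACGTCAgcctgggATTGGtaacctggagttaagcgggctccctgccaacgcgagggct

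TGACNTCA occurred in Jun, 45 bases before the start, and in Klf6, 119 bases before it, against 8.83% of 32851 promoter windows of the same length. TGACGT occurred in Fos, 66 bases before the start, and in Atf3, 8 bases before it, against 7.51% of all windows. Fos also held TATAAA, 33 bases before the start (13.6% of windows), and Klf6 held 4 CCAAT matches (37.4% of windows have at least 1). The AP-1 element TGANTCA (7.81% of windows) and the SRF-binding CArG box (1.63%) had no match in any of the 8 windows. The Atf3 and Fosl2 windows lie inside their GENCODE genes, at starts downstream of the outermost one. The Jund window ends at 70697788, before its GENCODE gene begins at 70698949. A match is a run of letters only, and nothing was measured on these windows. Of the members not shown, Fosb lies at chromosome 7 from 19302696 to 19310051, Fosl2 at chromosome 5 from 32135801 to 32157842 and Egr1 at chromosome 18 from 34859823 to 34864984. Chromosome 8 carries Junb from 84974484 to 84978718, Jund from 70698949 to 70700616 and Ier2 from 84661331 to 84662852.

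Fos was the member that differed most between the libraries among those above the detection filter. Its level in hepatocytes was 25.9 CPM (25.4 to 26.4) in Tom- and 13.2 CPM (12.9 to 13.6) in Tom+, a log2 ratio of -0.97 (interval -1.02 to -0.92). Fosb, its close relative, was scarce, at 1.33 CPM (524 UMIs) in Tom- and 0.430 CPM (177 UMIs) in Tom+, a log2 ratio of -1.63 (-1.89 to -1.39). Fosl2, which encodes a Fos family protein that lacks the strong transactivation domain of FOS, did not share this direction over all hepatocytes, at 8.05 CPM in Tom- and 9.47 CPM in Tom+ (log2 ratio 0.23).

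Of the Jun family, Jun stood at 54.4 CPM in Tom- and 62.2 CPM in Tom+ (log2 ratio 0.19, 0.17 to 0.22). Junb was at 33.2 and 33.8 CPM, with an interval of the ratio that included 0 (-0.01 to 0.06). Jund, the Jun member that most tissues keep at a steady level, was at 522 and 469 CPM (log2 ratio -0.16). Egr1 was at 73.5 CPM in Tom- and 85.7 CPM in Tom+ (log2 ratio 0.22). Klf6, a Krüppel-like factor described in liver injury and in stellate cells, was at 11.7 and 16.7 CPM (log2 ratio 0.51), and Ier2, a small nuclear immediate early protein, at 39.5 and 32.9 CPM (log2 ratio -0.26). Atf3 was nearly equal in both libraries, at 2.25 and 2.22 CPM. Probe sets bind with unequal efficiency, so levels are compared within a gene and not between genes.

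Against the whole table Fos, at 1.96-fold, lay at the lower edge and Klf6 near the upper one. Of 7847 genes with at least 10 CPM in either library, 23 were at least 2-fold higher in Tom+ hepatocytes (0.293%) and 2 at least 2-fold lower (0.0255%). Among the 7 members that passed this filter (Fosb, Fosl2 and Atf3 did not), none reached 2-fold in either direction. For Fos this rests on the settings, since its log2 ratio was -1.01 with cells of at least 1000 genes, -1.01 with a looser marker limit of 4 for hepatocyte clusters and -1.003 with median-of-ratios scaling. The share of tested genes with a lower log2 ratio was 0.0255% for Fos, 3.49% for Ier2 and 9.47% for Jund, and 81.4% for Jun, 85.0% for Egr1 and 97.8% for Klf6. The median log2 ratio of all 10 members, the 3 below the filter included, was 0.0034, beside 0.035 over all genes tested.

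Because Tom+ hepatocytes were more often pericentral, the libraries were also compared within each position bin. Fos was lower in Tom+ in 5 of 5 bins, with log2 ratios from -1.74 to -0.64, and its position-matched log2 ratio (the mean of the 5, equally weighted) was -1.19. Jun and Egr1 turned direction: higher in Tom+ over all hepatocytes, each was lower in 4 of 5 bins, with position-matched log2 ratios of -0.13 and -0.20. The Klf6 ratio shrank from 0.51 to 0.07 and the Fosl2 ratio from 0.23 to 0.01. Without cluster 11 the Fos log2 ratio was -0.96 over all hepatocytes and -1.22 matched on position. Ier2 and Jund stayed lower in 5 of 5 bins, at -0.19 and -0.15. After matching 8 of the 10 members were below 0, among them Fosb and Atf3, which had not passed the filter. Of the 7 members that had passed it, all but Klf6 were below 0, beside 52.3% of all genes tested. The median was then -0.17 over the 10 members, -0.15 over the 7 above the filter and -0.01 over all genes tested.

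**Figure D1:**
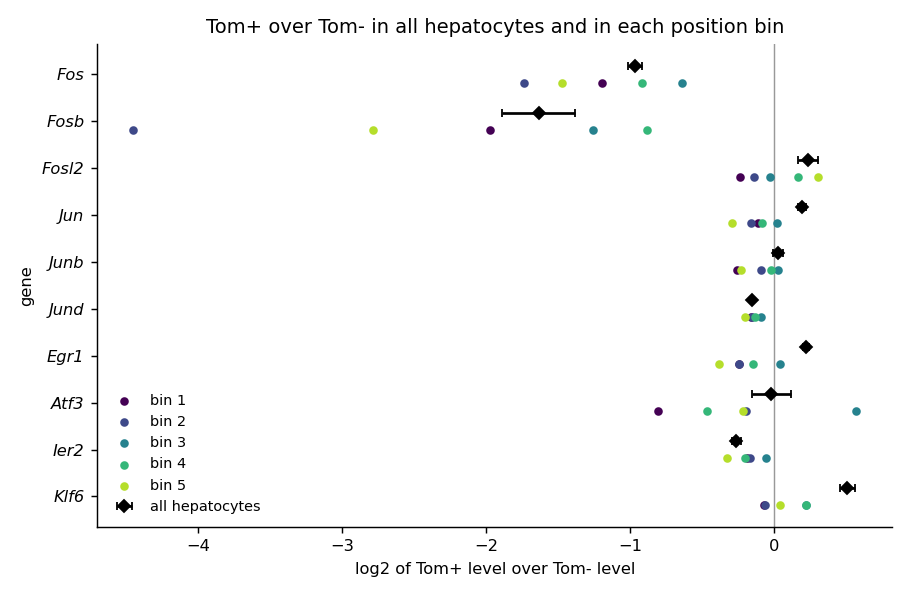
Log2 ratio of the Tom+ to the Tom- level (x axis) for each gene (y axis); black diamonds are all hepatocytes with their 95% counting intervals, and coloured dots are the 5 position bins without intervals. All 5 dots of Fos and Fosb lie left of 0, while the diamonds of Jun and Egr1 lie right of 0 and 4 of their 5 dots left of it.

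The Fos level was also compared within hepatocyte clusters and within bins of cell depth. In each of the 7 clusters with at least 100 cells of both libraries Fos was lower in Tom+, with log2 ratios from -1.96 to -0.20, and in 6 of them the interval lay below 0. Egr1 and Ier2 were also lower in 7 of 7, Jund, Atf3 and Fosb in 6, Fosl2, Jun and Junb in 5 and Klf6 in 4. Their intervals lay below 0 in fewer: 6 for Egr1 and Jund, 5 for Ier2, Fosb and Jun, 3 for Junb and Klf6, 2 for Atf3 and Fosl2. The interval lay above 0 in 2 clusters for Jun and 1 for Jund. The share of all genes lower within these clusters was not counted. When each library was cut into 5 bins by cell depth, Fos was lower in Tom+ in 5 of 5, by 1.42 to 2.36-fold. The bins were cut in each library by itself, so their depths were not matched. Median depth was 15320 UMIs in Tom- and 14688 in Tom+ in the shallowest bin, and 63007 and 73810.5 in the deepest. Fos also varied with depth itself. In Tom- it was at 35.1 CPM in the shallowest, 20.5 CPM in the fourth and 26.8 CPM in the deepest bin. In Tom+ it went from 24.8 to 11.3 CPM. The part of depth in the Fos difference was not tested.

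Fos was also lower in Tom+ among the cells left out of the hepatocytes, although these held hepatocyte RNA: Alb was between 40753 and 144931 CPM in the groups that made up the 3 clusters described next. The cells of 3 clusters that were low in genes and rich in markers of other liver cells, 1320 Tom- and 487 Tom+ cells, carried Fos at 38.0 CPM (563 UMIs) and 20.6 CPM (122 UMIs), a log2 ratio of -0.88 (-1.18 to -0.60). Clusters with many genes but with markers of other cells had a Fos log2 ratio of -1.24, and the remaining clusters of few genes one of -0.73. In the latter the intervals of Fosl2 (-0.47), Jun (-0.27), Junb (-0.40), Egr1 (-0.30), Ier2 (-0.29) and Klf6 (-0.25) also lay below 0. Fosb had 97 UMIs in Tom- and none in Tom+ there, with an upper limit of -2.04. These few-gene cells were deeper in Tom+ (342 cells with 12453369 UMIs) than in Tom- (4836 cells with 78047943 UMIs). The clusters were also mixed in unlike shares in the 2 libraries. The part of depth and mix in these ratios was not tested. In the clusters with many genes the intervals of Fosb (-2.31), Jund (-0.17) and Ier2 (-0.28) lay below 0. Those of Fosl2 (0.13), Egr1 (0.11) and Klf6 (0.35) lay above it. Jund in the 3 clusters was at 438 and 402 CPM, and Jun at 49.9 and 42.7 CPM (log2 ratio -0.22, -0.43 to -0.02). Klf6, at 57.2 and 52.4 CPM there, and Egr1, at 31.8 and 32.3 CPM, had intervals of the ratio that included 0. With 1 library a group, a difference between the libraries that all cells share and one particular to Tom+ hepatocytes cannot be told apart for Fos.

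Along the lobule, several members differed by more than they did between the libraries. Egr1, Jun and Klf6 had their highest level in the pericentral bin of both libraries, and Ier2 its highest in the periportal bin. In Tom-, Egr1 was at 55.6, 51.9, 64.8, 100.4 and 171 CPM from the periportal to the pericentral bin. In Tom+ it was at 47.0, 43.8, 66.5, 90.5 and 131 CPM, so its last bin was 3.08-fold above the first in Tom- and 2.79-fold in Tom+. Both libraries were flat over the first 2 bins and steep over the last 3.

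Klf6 went from 7.52 through 8.87, 12.5 and 16.0 to 23.8 CPM in Tom-. In Tom+ it went from 7.15 through 8.47, 14.6 and 18.6 to 24.5 CPM. The libraries nearly coincided at both ends, and each step between neighbouring bins was upward. Jun showed the same order, from 38.8 to 105 CPM in Tom- and from 35.8 to 85.5 CPM in Tom+, with log2 differences of 1.43 and 1.25 between the ends.

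Fos did not follow a single slope. In Tom- it was at 27.2, 23.8, 18.6, 22.7 and 51.7 CPM, lowest in the middle bin and highest at the pericentral end. In Tom+ it was at 11.9, 7.15, 11.96, 12.1 and 18.6 CPM, with its lowest level in the second bin. Fosb in Tom- was between 0.721 and 1.11 CPM over the first 4 bins and at 5.26 CPM in the last. A single cell gave 56 of the 185 Fosb UMIs in that last bin, and without it the level there was 3.67 CPM.

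Junb was nearly level over the first 4 bins of Tom- (29.7 to 35.0 CPM) and reached 47.1 CPM in the last, and in Tom+ it went from 26.9 to 40.1 CPM. Fosl2 went from 6.73 to 10.2 CPM in Tom- and from 5.71 to 12.6 CPM in Tom+. Jund was flat, with log2 differences between the ends of -0.01 in Tom- (interval -0.04 to 0.01) and -0.05 in Tom+. Ier2 was at 46.8 CPM in the first and 38.4 CPM in the last bin of Tom-, and at 41.0 and 30.7 CPM in Tom+. Its lowest level was in bin 3 of Tom- (33.7 CPM) and bin 4 of Tom+ (30.1 CPM). Atf3 was scarce, going from 2.03 to 2.87 CPM in Tom-, and its Tom+ peak of 3.43 CPM in the middle bin held 57 UMIs from a single cell and was 2.65 CPM without it.

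**Figure D2:**
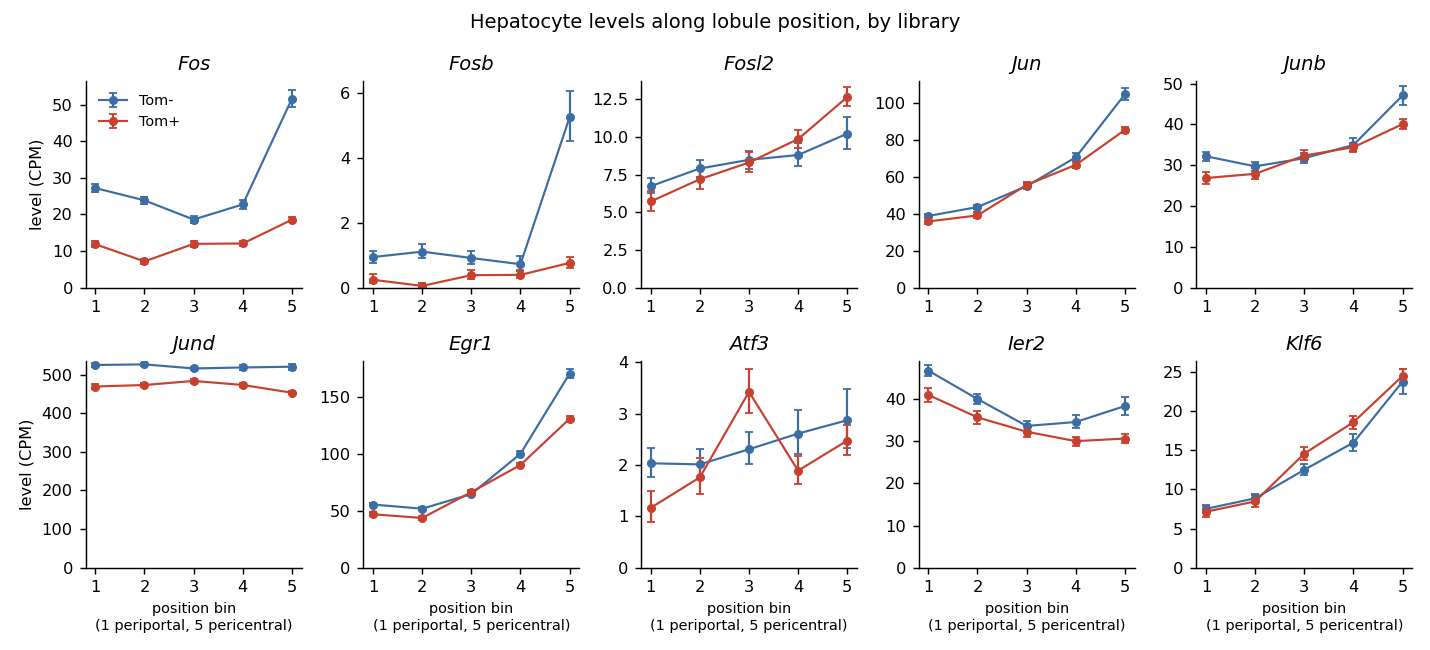
Level in CPM (y axes, each from 0 and scaled to its gene) in 5 position bins from periportal (1) to pericentral (5), for Tom- (blue) and Tom+ (red) hepatocytes; bars are 95% counting intervals. Egr1, Jun and Klf6 climb in both libraries, Jund is flat, Ier2 is highest in bin 1, and the Tom+ line of Fos lies under the Tom- line throughout.

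Of all genes tested between the end bins, 3.93% reached 2-fold upward and 2.7% downward in the pericentral bin of Tom-, and 4.45% and 2.8% did so in Tom+. Among the members 4 were at least 2-fold higher in Tom- (Fosb, Jun, Egr1 and Klf6) and 6 in Tom+ (these and Fosl2 and Atf3), and none was 2-fold lower. Fosb and Atf3 stayed under 10 CPM at both ends and were not among the genes tested, while Klf6 in both libraries and Fosl2 in Tom+ passed only through their pericentral level. Their 2-fold differences are therefore not read against the shares over all genes. The median log2 difference over all 10 members, those just set aside included, was 0.76 in Tom- and 1.12 in Tom+. A median over all genes was not taken along the lobule, so these 2 values have no reference. Median depth was lower in the pericentral bin (28855 against 32552 UMIs in Tom-, 33582 against 39477 in Tom+), and Egr1 was higher in shallow cells, at 103 CPM in the shallowest and 67.2 CPM in the deepest bin of Tom-. With every cell thinned to 10000 UMIs, the Egr1 log2 difference between the ends of Tom- was 1.70. Thinning leaves the expected share of Egr1 in each cell as it was, so the part of depth in this difference was not tested.

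Within the pericentral bin of Tom+, the members split by cluster. Cluster 8, singled out after its values were seen, held 36 Tom- and 1486 Tom+ cells and was zone 3-like. All 12 zone 3 markers were at least 1.5-fold above the median of the other hepatocyte clusters in it, and its 10 leading genes included the pericentral glutamine synthetase gene Glul together with H2-Q1, Ces2c, Snhg11 and Dbp. Its 813 Tom+ cells in that bin had Fos at 3.84 CPM (3.20 to 4.57), against 24.1 CPM (23.1 to 25.2) in the other 2337 Tom+ cells of the bin, a 6.29-fold lower level. Egr1 was at 69.9 against 154 CPM, Ier2 at 20.3 against 34.6, Junb at 28.3 against 44.5 and Jun at 62.5 against 94.2 CPM.

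Fosl2 went the other way, at 16.1 CPM in cluster 8 and 11.3 CPM in the other cells of the bin, and Klf6 was at 21.6 and 25.6 CPM. In bin 4 the gap in Fos was smaller, 5.68 against 13.5 CPM. The members took part in the clustering, so these values describe the cluster and do not test it. Without cluster 8 the log2 ratio of Tom+ to Tom- over all hepatocytes was -0.83 for Fos and 0.26 for Egr1.

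**Figure D3:**
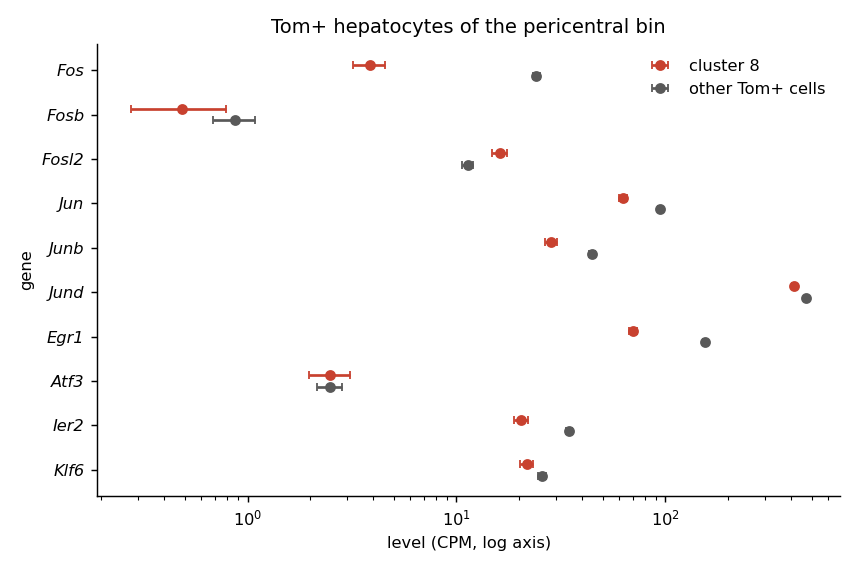
Level in CPM (log x axis) of each gene (y axis) in Tom+ hepatocytes of the pericentral bin, for cluster 8 (red, 813 cells) and all other clusters (grey, 2337 cells), with 95% counting intervals. Fos is at 3.84 against 24.1 CPM, and Fosl2 is the one gene whose interval lies above that of the other cells.

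Fos RNA was concentrated in few hepatocytes. At 10000 UMIs a cell (10493 Tom- and 9900 Tom+ cells deep enough, with 359 and 451 left out), 1189 Tom- cells (11.3%, Wilson 95% interval 10.7 to 11.95) and 789 Tom+ cells (7.97%, 7.45 to 8.52) had a Fos UMI. Those cells held on average 2.32 Fos UMIs in Tom- and 1.93 in Tom+. That mean cannot fall below 1, so the share of cells and the amount per cell were not weighed against each other. Unthinned, 4576 of the 21203 hepatocytes of both libraries had a Fos UMI. No cell class here is known to lack Fos, so the share that free RNA alone would give was not measured.

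The variance of Fos UMIs over cells was 5.91 times the mean in Tom- and 4.71 times in Tom+, and the 1% of cells with most Fos held 39.8% and 43.5% of its UMIs. For Jund that share was 3.10% and 3.07%, with a UMI in 98.5% and 98.2% of the cells. This share depends on the mean, which in Tom- was 5.03 UMIs a cell for Jund and 0.263 for Fos. In Klf6 and Fosl2, both scarcer than Fos in Tom-, it was 19.0% and 18.5% there, and 16.1% and 16.8% in Tom+. Fos was not the extreme, since Atf3 stood at 62.2% and 64.8% and Fosb at 100% in both libraries. The variance was above the mean for all 10 genes in both libraries, at 3.39 and 2.97 times for Egr1, 2.87 and 2.06 times for Jun and 1.70 and 2.79 times for Atf3, so counting intervals are narrower than the spread between cells would give. Leaving out the 1% of cells highest in Fos in each library, at full depth, gave 17.3 CPM in Tom- and 8.62 CPM in Tom+, a log2 ratio of -1.01. The corresponding trim removed every Fosb UMI of the Tom+ hepatocytes and 88.4% of those of Tom-.

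The cells with Fos also tended to hold the other immediate early genes. Egr1 was detected in 62.2% of Tom- cells with Fos and 34.7% of those without, and in 70.1% and 41.9% in Tom+. Jun was detected in 47.6% against 33.5% in Tom-, and Junb in 38.8% against 25.8%. Fosl2 was nearly even, at 9.17% against 7.84% in Tom- and 9.38% against 9.43% in Tom+. Across cells the correlation (Pearson r of log counts) of Fos with Egr1 was 0.399 in Tom- and 0.304 in Tom+, with Fosb 0.338 and 0.270, and with Jun 0.199 and 0.160. These are descriptions over cells that share a library and carry few UMIs of each gene.

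Of the 45 pairs of members, 16 in Tom- and 11 in Tom+ had r over 0.1, and the median was 0.064 and 0.058. Fosl2 stood apart, with r of 0.014 with Fos in Tom- and almost none in Tom+. Klf6 was most like Jun, at 0.137 and 0.122. Ier2, highest in the periportal bin, and Klf6, highest in the pericentral bin, were at 0.014 and 0.020 with each other. Within position bins the Tom+ value of Fos with Egr1 was 0.274.

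**Figure D4:**
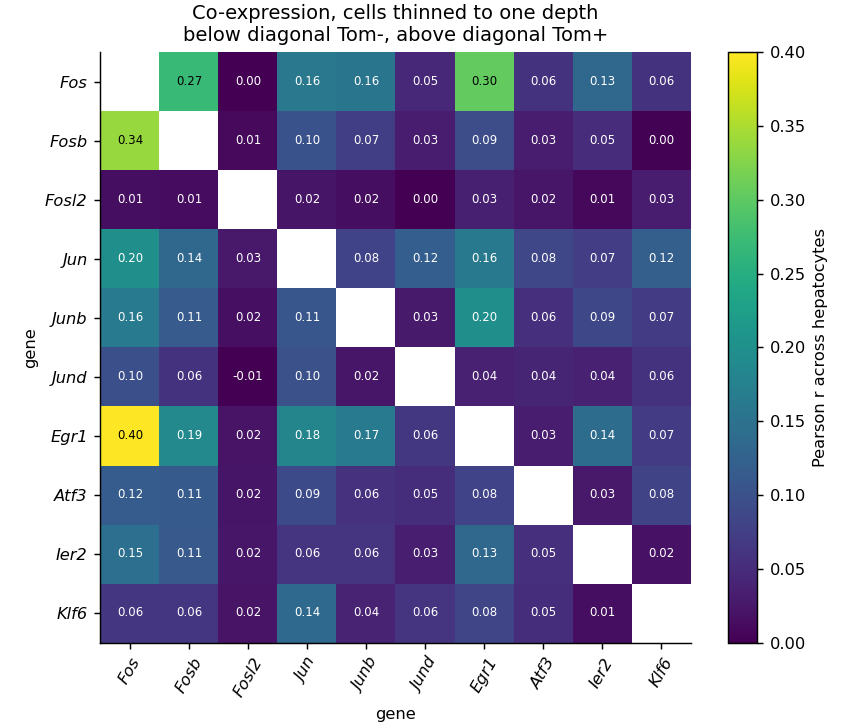
Pearson r of log counts across hepatocytes thinned to 10000 UMIs for every pair of genes, with Tom- (10493 cells) under the diagonal and Tom+ (9900 cells) above it, on a colour scale from 0 to 0.4, where a value below 0 takes the darkest colour. Fos with Egr1 and Fos with Fosb are the brightest pairs in both libraries, and the Fosl2 row and column are dark.

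Among 7592 genes with at least 10 CPM in each library, those most like Fos across cells, by the mean r of both libraries, were Egr1 (0.352), Jun (0.179), Btg2 (0.169), Junb (0.160), Zfp36 (0.141), Ier2 (0.140), Igfbp1 (0.131), Dusp6 (0.123), Actg1 (0.121) and Cyr61 (0.0979). Btg2 is an antiproliferative immediate early gene, Zfp36 encodes an mRNA decay factor, Dusp6 an ERK phosphatase and Cyr61 a matricellular growth regulator. Jund ranked 19 and Klf6 ranked 27. The median r with Fos over all genes ranked was 0.0037 and the 95th percentile 0.023.

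Related genes were read from lists. Of 26 genes above the filter, read as other immediate early genes, 12 were higher and 14 lower in Tom+, none by 2-fold, with a median log2 ratio of -0.06. Brf1 (-0.06), among the lower ones, is named only because it stood in for the listed Zfp36l1 as a synonym. Brf1 is also the symbol of another gene, so the counts and the median may include a gene not on the list. Myc, the growth regulator, was at 10.5 CPM in Tom- and 17.1 CPM in Tom+ (0.71), and Gadd45g, a stress gene, at 88.0 and 56.5 CPM (-0.64); after matching on position these ratios were 0.32 and -0.16. Of 12 kinases and factors that act on immediate early genes, 9 were higher in Tom+ (median 0.10, and 0.04 after matching), beside 59.7% of all genes tested. Map2k1, an ERK pathway kinase, was at 0.33 and Mapk8, which encodes the kinase JNK1, at 0.27, or 0.09 and 0.16 after matching. Of 9 AP-1 partners and inhibitors, 4 were higher and 5 lower (median -0.04), with Mafk, a small MAF protein, at 0.25, or 0.05 after matching.

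Of 9 heat shock genes 8 were higher in Tom+ (median 0.22), beside the same 59.7% of all genes, and the small heat shock protein gene Hspb1 was the one past 2-fold, at 6.95 and 15.3 CPM (1.14), or 0.33 after matching; it passed the filter only through its Tom+ level. Of 12 AP-1 target genes only Ccnd1 passed the filter, at 35.1 and 47.0 CPM (0.42), or 0.08 after matching. Of 14 clock and glucocorticoid genes 5 were higher and 9 lower (median -0.06), with Dbp, a clock output factor, past 2-fold at 8.75 and 22.7 CPM (1.37, and 1.45 after matching) and likewise above the filter only in Tom+. The median of the heat shock genes was 0.07 after matching.

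The other liver cells in the sort were read by group. Sub-clustering the 3 marker-rich clusters of few genes gave 10 groups of 30 to 392 cells. All 10 contained abundant Alb, the lowest at 40753 CPM, so hepatocyte RNA was present in every one and levels in them are mixtures. Median depth was between 3906 and 13801 UMIs in the groups, against 32564.5 in Tom- and 35325 in Tom+ hepatocytes. The part of depth in the levels below was not tested. Klf6 was between 20.1 and 267 CPM in the groups, against 14.3 CPM in hepatocytes, and Atf3 between 3.66 and 279 CPM, against 2.24 CPM. Egr1 was between 21.9 and 98.3 CPM, against 79.8 CPM in hepatocytes. Fosl2 was between 8.82 and 80.0 CPM, against 8.77 CPM, and its lowest group had an interval (6.603 to 11.5) that included the hepatocyte level. Its interval lay wholly above that of hepatocytes in 6 of the 10 groups.

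The highest Atf3 was in 59 cells led by Gpnmb, Mmp12, Lgals3 and Trem2, a group singled out after its values were seen. 7 of 8 Kupffer cell markers were at least 1.5-fold above the median of the other groups in it, but none was among its 10 leading genes, and it was left unnamed. Atf3 was at 279 CPM (232 to 332) in these cells, against 2.24 CPM in hepatocytes, a 125-fold difference. 36 of the 59 cells had an Atf3 UMI, and the highest cell gave 21 of the 125 UMIs. Both libraries shared this, with 305 CPM in 45 Tom- cells and 194 CPM in 14 Tom+ cells. Jun was at 265 CPM and Klf6 at 267 CPM (18.8-fold above hepatocytes), while Egr1 was at 31.2 CPM and Fosb had no UMI, which allows up to 8.22 CPM.

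A further 320 cells, in which 8 of 8 Kupffer markers were higher by the same measure but none was among the leading genes, had Klf6 at 111, Fos at 58.4 and Atf3 at 17.8 CPM. In 30 cholangiocyte-like cells Fos was at 152 CPM (106 to 210), Junb at 101, Fosl2 at 80.0 and Klf6 at 92.6 CPM. There a single cell gave 12 of the 36 Fos UMIs, and a single cell 9 of the 24 Junb UMIs. In 130 stellate and fibroblast-like cells Fosb was at 49.1 CPM, against 0.871 CPM in hepatocytes, from 6 cells with a Fosb UMI of which 1 gave 15 of the 29 UMIs, and Egr1 was at 98.3 CPM, with an interval of 74.6 to 127 that includes the hepatocyte level. Fos in these cells was at 79.6 CPM and Jun at 122 CPM. These levels depend on the grouping: at a clustering resolution of 1.2 the 244 cells of that name had Egr1 at 59.4 CPM (50.4 to 69.6), below hepatocytes, Jun at 66.0 CPM and Fosb at 27.6 CPM, and in the 65 cells low in Alb, Apoa1 and Ttr Fos was at 43.4 CPM (21.7 to 77.7).

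The larger endothelial-like group of 392 cells had Fos at 14.97 CPM (12.04 to 18.4), against 19.4 CPM in hepatocytes, and Egr1 at 22.3 CPM. Its Klf6 was at 20.1 CPM (16.7 to 24.0), against 14.3 CPM over all hepatocytes. In the shallowest depth bin of hepatocytes Klf6 was at 18.6 CPM in Tom- and 21.4 CPM in Tom+. The smaller endothelial-like group of 211 cells had Fos on the other side of the hepatocyte level, at 29.0 CPM (19.7 to 41.2). So had the 301 endothelial-like cells low in Alb, Apoa1 and Ttr, at 29.9 CPM (22.8 to 38.5). The smaller group also had Klf6 at 77.7 CPM and Fosl2 at 35.6 CPM. In 252 unnamed cells led by haemoglobin genes, in which all 8 Kupffer and 7 other leukocyte markers were also higher, Atf3 was at 14.9 and Klf6 at 42.3 CPM. Jund was between 376 and 581 CPM over the 10 groups, beside 495 CPM in hepatocytes, and 1 cell gave 73 of the 138 Jund UMIs in the cholangiocyte-like cells, where it was highest.

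**Figure D5:**
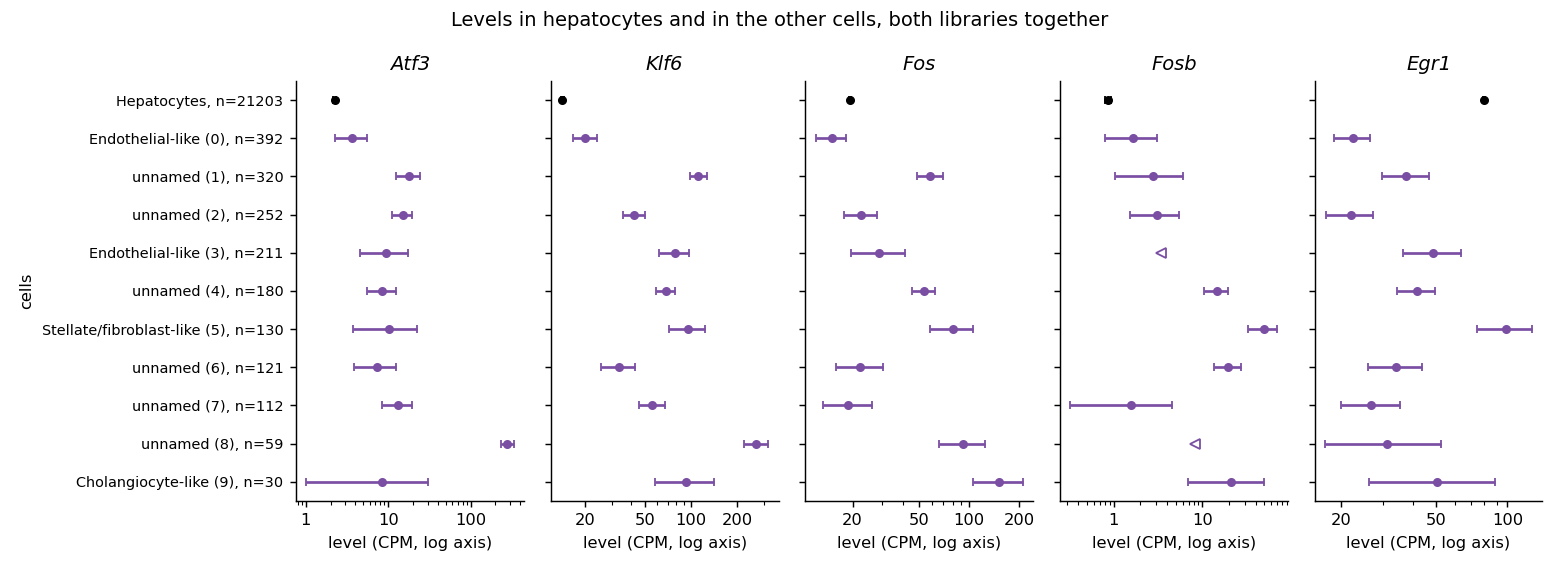
Level in CPM (log x axes) of 5 of the genes in hepatocytes (black) and in 10 groups of other cells (purple, group number and cell number in the labels), both libraries together, with 95% counting intervals; open triangles are the upper limits of groups with no UMI. Atf3 and Klf6 are highest in the 59 cells of group 8, Fosb in the 130 cells of group 5, and Egr1 is lower than in hepatocytes in all groups but that one.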

How the data were processed

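Single-cell libraries were prepared from fixed cells with the 10x Genomics probe-based Chromium Fixed RNA kit. The authors processed the reads with Cell Ranger 7.2.0 on mm10, and deposited 1 matrix of UMI counts per library, not normalized, with 23220 Tom- and 16339 Tom+ barcodes and 681279005 and 715333889 UMIs. After the study's methods, cells with 2000 to 10000 genes, at most 100000 UMIs and at most a 0.05 mitochondrial fraction were kept. Cells were clustered with scanpy 1.11.5 (2000 variable genes, 30 components, a shared-neighbour graph of 20 neighbours, Leiden resolution 0.8). Clusters below 0.75 times the typical gene number, or above 2.5 times the median cluster in Ptprc, Dcn or Pecam1, were left out of the hepatocytes; the sub-clustering of those that met both limits was added after the clusters were seen. Scrublet marked 1 and 0 cells as doublets and so did not work; doublets were kept.

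Levels are summed UMIs per 1000000 (CPM) with exact Poisson intervals, ratios carry exact conditional intervals, and shares Wilson intervals. UMIs over cells are not independent, and each level depends on the probes. Genes were read against all genes with at least 10 CPM on either side and 20 UMIs over both. Co-expression was computed from log counts after each cell was drawn down to 10000 UMIs. A group was named from a marker list when at least 3 of its markers, each at 5 CPM or more, were at least 1.5-fold above the median of the other groups. That list had to have more such markers than any other list. It also needed at least 1 marker among the 10 leading genes of the group, with no other list having more there. Sequences are from RefSeq and coordinates from GENCODE, both on GRCm38, the assembly of mm10. Symbols in the gene lists were matched to older ones through RefSeq. A synonym can be the symbol of another gene, as with Brf1 for Zfp36l1 and Mal for Mrtfa, and this was not checked. Mal did not pass the filter. The ratio, the correlation and the thinning were checked on simulated data.

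The members, the lists and the limits were chosen with earlier results of these data known. Genes named beyond the members were the 10 most like Fos and, in each list, those past 2-fold or else the 2 most extreme, of which 1 is not reported here; others are said to have been chosen after their values were seen.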

Additional observations from a re-analysis of the deposited data

How the results depend on the processing

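No paired analysis was possible because there was 1 library per group, and no replicate could be left out. Over alternatives in cell filter, clustering, doublets, scaling, depth, position and gene minimum, 756 values moved by less than their interval and 322 by more. For counts of genes the limit was 1.5 times. Levels and ratios had counting intervals. Correlations had intervals that take each cell as independent, which cells of 1 library are not, so these only sort the values. Of the values whose interval as reported excluded 0, 5 turned direction. A further 17 values, of 10 results whose interval as reported included 0, also changed sign: the ratios of Junb and Atf3, the lobule difference of Jund in Tom-, and 7 near-zero correlations, 6 of them of Fosl2. The Fos log2 ratio of Tom+ to Tom- was -0.91 with clusters of few genes kept, -0.83 with cells thinned to 10000 UMIs, -0.84 as a mean over cells, -1.19 matched on position and -0.83 without cluster 8. It passed 2-fold at -1.01 with cells of at least 1000 genes or a marker limit of 4, where 3 genes were 2-fold lower. Position matching turned Jun to -0.127 and Egr1 to -0.197. Genes at least 2-fold higher in Tom+ numbered 238 with no CPM minimum, 15 at 50 CPM, 3 after matching and 15 without cluster 8, and those lower 97 with no minimum, 1 after matching and 0 without cluster 8. The Egr1 log2 difference between the ends of the lobule in Tom- was 1.51 with clusters of few genes kept, 1.70 thinned, 1.71 as a mean over cells, 1.41 with 3 bins, 1.90 with 10 bins, 1.26 with bins set in each library and 1.84 between zone-like clusters. In Tom+ it was 1.56 thinned, 1.60 from summed markers, 1.38 with 3 bins and 1.66 with bins set in each library. Atf3 in the Gpnmb-led cells was 395 CPM in those thinned to 5000 UMIs. The correlation of Fos with Egr1 in Tom- was 0.345 at 5000 UMIs, 0.436 at 20000 and 0.508 unthinned, and in Tom+ 0.253, 0.353 and 0.419, and 0.274 within position bins. Of correlations whose interval, with cells taken as independent, excluded 0, that of Fosl2 with Atf3 in Tom+ turned sign at 5000 UMIs (-0.00018). Those of Fosl2 with Jun (-0.00075) and Egr1 (-0.00068) in Tom+ did so within position bins. The trim of the highest 1% of cells and the fit without cluster 11 were added after seeing the data; Fosb has no ratio under the trim, since no Tom+ UMI was left. Position matching by its construction weights the 5 bins equally; for the other settings the cause was not tested. A single library per group limits every comparison of Tom+ with Tom-.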

Other observations

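How many of the genes a single hepatocyte held at once was counted at 10000 UMIs a cell. Of the 10493 Tom- cells, 22 held no UMI of any of the 10 genes, 3348 held UMIs of 2 of them and 89 held at least 7 (0.848%). Of the 9900 Tom+ cells, 30 held none, 3081 held 2 and 60 held at least 7 (0.606%). The share of cells with Fos was 11.3% in Tom- and 7.97% in Tom+. Outside the hepatocytes the Fosb level was 8.97 CPM (133 UMIs) in Tom- and 1.52 CPM (9 UMIs) in Tom+, in the 1320 and 487 cells of the 3 marker-rich clusters of few genes. Few cells carried the Tom- value: 35 of its UMIs came from 2 cells of one group, 43 from 7 cells of another and 28 from 5 stellate and fibroblast-like cells.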
